A study of Mus musculus with 3 samples.

Results

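Camp Ngp-high neutrophils were described in the mouse bone marrow niche from 3 single-cell RNA libraries, 1 for each of the groups aGVHD, BMT and WT. In the group aGVHD, for acute graft-versus-host disease, cells came from irradiated female CB6F1 mice given B6.SJL marrow together with spleen cells of female C57BL/6 mice. The BMT (bone marrow transplantation) library came from irradiated female CB6F1 mice given B6.SJL marrow alone. WT cells came from female CB6F1 mice with no treatment. CB6F1 is a cross of BALB/c and C57BL/6 and carries CD45.2, B6.SJL carries CD45.1, and the recipients were irradiated 2 times with 4 Gy and transplanted 4 hours later. The sort removed cells positive for CD45, for CD71 or for lineage antibodies and used Calcein AM and DAPI to keep live cells. Neutrophils carry CD45 and lineage antigens, so the cells described here are those found after this depletion, and their shares are set in part by the sort. How many mice were pooled, when after transplantation they were sampled and whether marrow donors were male or female is not given in the sources used.

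A cell was taken when its barcode held at least 1000 unique molecular identifiers (UMIs) and 500 genes with under 10% mitochondrial UMIs. It also had to hold at least 3% of its UMIs in S100a8 and S100a9, at least 1% in Camp, Ngp and Ltf, and under 2% in Elane, Prtn3, Mpo and Ctsg. This rule took 518 of 16318 called cells. There were 293 in aGVHD, 172 in BMT and 53 in WT. The same values chose the cells, so the levels of these 9 genes describe the choice and are not a result.

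Neutrophils ripen in the marrow through stages marked by the order in which their granules fill. Dividing promyelocytes make the primary granule proteins Elane, Prtn3, Mpo and Ctsg, and myelocytes and metamyelocytes then make the secondary granule proteins Camp, Ngp, Ltf and Lcn2 under the transcription factor Cebpe. Band and segmented cells no longer divide, turn down the granule genes and gain Cxcr2, Retnlg and other genes of circulating neutrophils, while the receptor Cxcr4 holds younger cells in the marrow. All 14 neutrophil markers listed for the check of identity were detected in each library, 5 of them genes of the rule and the others including Ly6g, Lcn2, Csf3r, Cd177 and Itgam. The 14 markers made up 46.2% of the cells' UMIs in aGVHD, 45.3% in BMT and 40.1% in WT. S100a8 and S100a9, which the rule used, alone had a median share per cell of 37.5%, 35.3% and 34.4%. Most of the 14-marker sum thus describes the choice and is not a check of identity. The name immature fitted unevenly: Cebpe had a UMI in 22.2% of the cells in aGVHD, 11.05% in BMT and 45.3% in WT, while Cxcr2 had a UMI in 75.1%, 72.7% and 47.2% of them. The cells are therefore called by their rule, Camp Ngp-high, and not by a stage.

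Promoter sequences of 6 genes are shown because 2 of them defined the cells and the 4 others, the named stefin A genes, were higher in aGVHD than in BMT. They run from 250 bases before to 50 bases after the RefSeq start site, are given 5′ to 3′ on the gene's strand of GRCm38.p6, and come from RefSeq. Capitals mark the letters TTNNGNAA on either strand, a loose form of the site that C/EBP factors such as Cebpe bind.
Ngp, chr9:110419558-110419857, plus strand: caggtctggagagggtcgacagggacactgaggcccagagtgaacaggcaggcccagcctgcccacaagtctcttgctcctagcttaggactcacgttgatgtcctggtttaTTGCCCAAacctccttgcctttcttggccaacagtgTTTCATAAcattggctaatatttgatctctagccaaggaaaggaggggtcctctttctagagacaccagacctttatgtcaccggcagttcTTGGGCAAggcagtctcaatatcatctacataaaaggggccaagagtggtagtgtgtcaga
Ltf, chr9:111019042-111019341, plus strand: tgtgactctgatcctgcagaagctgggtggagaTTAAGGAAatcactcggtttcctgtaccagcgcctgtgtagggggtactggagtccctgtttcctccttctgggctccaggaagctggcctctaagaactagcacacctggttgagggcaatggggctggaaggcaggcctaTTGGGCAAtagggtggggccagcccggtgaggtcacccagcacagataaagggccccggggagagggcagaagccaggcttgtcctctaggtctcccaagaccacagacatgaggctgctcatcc
Stfa1, chr16:36276898-36277197, plus strand: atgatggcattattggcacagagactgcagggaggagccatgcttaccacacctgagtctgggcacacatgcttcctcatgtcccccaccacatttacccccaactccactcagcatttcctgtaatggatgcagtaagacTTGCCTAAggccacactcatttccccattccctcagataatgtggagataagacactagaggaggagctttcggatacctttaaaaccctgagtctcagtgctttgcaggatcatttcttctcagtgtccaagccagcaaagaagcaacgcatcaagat
Stfa2, chr16:36408314-36408613, minus strand: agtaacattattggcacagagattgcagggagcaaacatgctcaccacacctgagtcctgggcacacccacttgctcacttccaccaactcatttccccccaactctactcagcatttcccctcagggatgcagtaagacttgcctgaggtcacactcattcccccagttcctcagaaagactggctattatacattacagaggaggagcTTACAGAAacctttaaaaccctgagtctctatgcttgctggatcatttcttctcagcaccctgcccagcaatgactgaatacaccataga
Stfa2l1, chr16:36156561-36156860, plus strand: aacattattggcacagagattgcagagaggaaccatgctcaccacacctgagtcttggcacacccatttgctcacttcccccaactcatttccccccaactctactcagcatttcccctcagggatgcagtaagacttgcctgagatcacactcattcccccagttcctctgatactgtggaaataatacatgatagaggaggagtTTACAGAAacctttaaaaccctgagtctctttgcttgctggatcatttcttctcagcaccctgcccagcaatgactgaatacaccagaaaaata
Stfa3, chr16:36455343-36455642, minus strand: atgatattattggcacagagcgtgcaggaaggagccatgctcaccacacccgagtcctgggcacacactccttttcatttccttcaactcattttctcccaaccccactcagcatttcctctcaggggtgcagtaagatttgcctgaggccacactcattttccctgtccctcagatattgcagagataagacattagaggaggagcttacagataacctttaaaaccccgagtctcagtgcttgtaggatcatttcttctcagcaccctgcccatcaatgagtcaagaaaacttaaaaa
The Ngp window held the letters at 3 places and the Ltf window at 2, against 13.6% of 32851 promoters of the same length that held them at 2 or more. Stfa1, Stfa2 and Stfa2l1 held them at 1 place each and Stfa3 at none, against 40.7% of all promoters with at least 1 place. The Camp window, not printed, held none. Such a match is a description of letters and not a bound site. The Stfa2 and Stfa2l1 windows were 90.5% identical over their alignment and the other stefin pairs 78.8% to 80.9%, whereas pairs of Ngp or Ltf with a stefin window lay between 43.2% and 50.6%.

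The Camp Ngp-high cells made up 5.26% of called cells in aGVHD (95% interval 4.69% to 5.88%), 4.75% in BMT (4.08% to 5.49%) and 0.743% in WT (0.557% to 0.971%). Intervals of shares are exact Clopper-Pearson intervals, intervals of levels are exact Poisson intervals, and both cover counting error only, since each group is 1 library with no replicate and no test could be run. The shares in aGVHD and BMT overlapped in their intervals, and both lay far above WT, with the depletion sort standing between marrow and library in all 3. A second group of neutrophils passed the S100a8 and S100a9 limit but fell under the Camp, Ngp and Ltf limit, and is called Camp Ngp-low here. It held 404 cells in aGVHD, 592 in BMT and 43 in WT. Of both groups together, the Camp Ngp-high cells were 42.0% in aGVHD (38.3% to 45.8%), 22.5% in BMT (19.6% to 25.6%) and 55.2% in WT (44.7% to 65.4%). Cells with at least 2% of UMIs in the primary granule genes, the stage before, numbered 4 in aGVHD, 2 in BMT and 34 in WT.

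**Figure D1:**
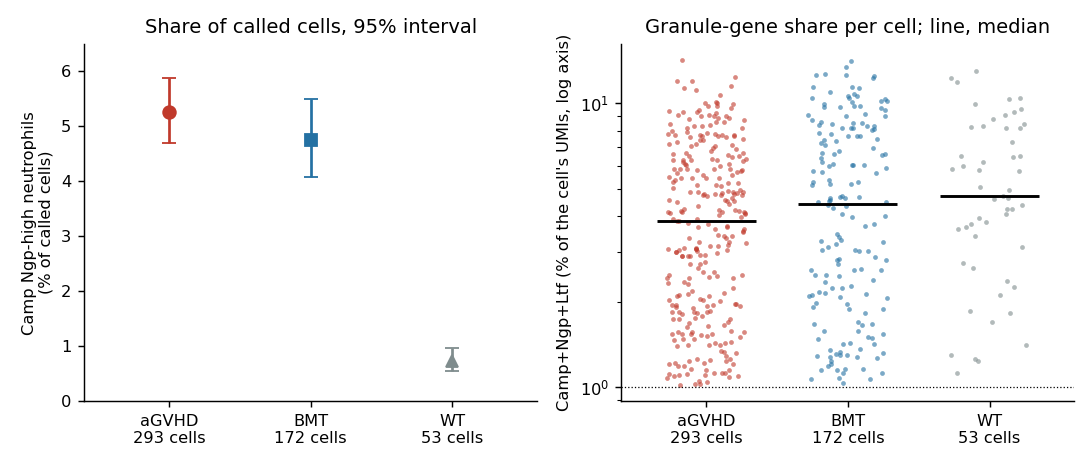
Left, Camp Ngp-high neutrophils as a percentage of called cells in aGVHD, BMT and WT, with exact 95% intervals. Right, the summed Camp, Ngp and Ltf share of each cell's UMIs on a log axis, 1 point per cell, with the median as a line (3.86%, 4.43% and 4.72%) and the 1% limit of the rule dotted; the 3 libraries span the same range.

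The cells were sampled at similar median depth, with a wider spread in WT. The upper quartile of UMIs per cell was 12570 in aGVHD, 11932.5 in BMT and 17247 in WT. Levels pooled over WT cells therefore lean more on the deepest cells. The median cell held 10302 UMIs and 1557 genes in aGVHD, 9675.5 UMIs and 1560 genes in BMT and 9228 UMIs and 1641 genes in WT, and the pooled cells gave 3253286, 1768471 and 706737 UMIs. No barcode was shared between libraries among these cells. Of the cells, 14 in aGVHD, 7 in BMT and 7 in WT were likely doublets by score, 8, 0 and 0 held 2% or more haemoglobin UMIs, and 2, 4 and 6 held 0.5% or more stromal or endothelial marker UMIs. The Camp, Ngp and Ltf limit cut through a continuous spread, with the nearest cells at 1.02% and 0.998% in aGVHD, 1.04% and 0.937% in BMT and 1.12% and 0.999% in WT. The S100a8 and S100a9 limit did not, since the lowest cell stood at 8.82% in aGVHD, 9.23% in BMT and 7.40% in WT. Empty droplets, which show the free RNA, held 2.16%, 2.18% and 0.847% of their UMIs in S100a8 and S100a9 and 0.192%, 0.198% and 0.124% in Camp, Ngp and Ltf.

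Markers of other marrow cells were scarce. The 16 monocyte and macrophage markers made up 0.124% of UMIs in aGVHD, 0.109% in BMT and 0.138% in WT, with C1qb, Cx3cr1 and Mrc1 at 0 in every library. The LepR stroma list made up 0.00722%, 0.146% and 0.132%. Erythroid markers made up 1.51% in aGVHD, 0.00876% in BMT and 0.0338% in WT, and the aGVHD value rested on 13 cells with 1% or more, as the median cell there held 0.0535%. The progenitor list made up 0.0240%, 0.00232% and 0.121%. In aGVHD all 278 Elane UMIs lay in 1 cell, and the cell richest in each gene held 91.6% of Prtn3 and 98.0% of Mpo UMIs, so the library's Elane level describes that cell alone.

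The genes that chose the cells are given as a description. Camp, the precursor of an antimicrobial cathelicidin peptide, had 13892 UMIs per 1e+06 UMIs (CPM) in aGVHD, 19771 in BMT and 27037 in WT. Ngp, a neutrophilic granule protein, had 28309 CPM in aGVHD, 32450 in BMT and 30520 in WT. Ltf, the iron binder lactoferrin, had 4507 CPM in aGVHD, 5688 in BMT and 4215 in WT. S100a8, a subunit of calprotectin, had 189919 CPM in aGVHD, 160671 in BMT and 149872 in WT. These 4 genes varied by less than 2-fold between libraries. Lcn2, a secondary granule gene that the rule did not use, had 18315 CPM in aGVHD, 14918 in BMT and 17656 in WT and had a UMI in every cell of each library.

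BMT was compared with WT to see what set these neutrophils apart after irradiation and marrow transfer. BMT cells held far fewer transcripts of division genes and of the early genes Cebpe, Ms4a3 and Fcnb. Genes that neutrophils gain late went both ways, some higher in BMT and others lower. A gene passed the size rule with at least 50 UMIs over both libraries, at least 2-fold difference, an exact interval that excludes 1, and at least 2 times the CPM of its own library's empty droplets on the higher side. Of 3255 measured genes, 150 passed as higher in BMT (4.61%) and 80 as lower (2.46%). Scaled to UMIs without the 9 genes of the rule, the numbers were 261 and 105, and with no empty-droplet limit they were 334 and 466. Marrow donor strain, irradiation and transplantation all separate BMT from WT, as do the sex-linked transcripts given below. With 1 library per group, these and differences of mice or sort cannot be told apart.

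Of the early genes, Cebpe had 15.3 CPM in BMT against 166 CPM in WT, which is 10.8-fold lower (7.09 to 17.1). Ms4a3, a membrane protein of granulocyte-monocyte progenitors, had 2.26 CPM in BMT against 120 CPM in WT, 53.2-fold lower (20.02 to 199.6). Fcnb, the granule lectin ficolin B, had 23.2 CPM in BMT against 446 CPM in WT, 19.2-fold lower (13.9 to 27.3). Early genes rested on few cells in WT, since Fcnb had a UMI in 20.8% of WT cells and 4.07% of BMT cells, and 37.5% of its WT UMIs lay in 1 cell. With the cell richest in Fcnb left out of each library it was 19.7-fold lower. Without cells that held progenitor markers the log2 ratio of Ms4a3 was −3.94 and that of Fcnb −2.84, and without cycling cells that of Fcnb was −2.87. Top2a and the histone genes Hist1h2ap and Hist1h1b, all used in DNA replication and division, were 28.6-fold, 28.9-fold and 11.8-fold lower in BMT. With the richest cell of each gene left out these 3 were 36.5-fold, 51.9-fold and 45.9-fold lower, and with each cell weighted equally their log2 ratios were −3.47, −3.50 and −2.37.

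Of 6 measured genes of the primary granule list, 5 were lower in BMT, namely Elane, Prtn3, Mpo, Calr and Ms4a3. The rule used Elane, Prtn3 and Mpo, so this count and the median log2 ratio of −5.66 describe the choice and are not a result. In WT 1 cell held 48.8% of the UMIs of the progenitor list. Srgn, the granule proteoglycan serglycin, was 2.44-fold higher in BMT and made the summed list 1.54-fold higher (1.47 to 1.61), at 5578 CPM in BMT against 3625 CPM in WT. Secondary granule genes were lower in BMT about as often as all measured genes, by the counts given below for both. Chil3, a chitinase-like protein, had 2082 CPM in BMT against 7877 CPM in WT, 3.78-fold lower (3.63 to 3.95). It had a UMI in 73.8% of BMT cells against 96.2% of WT cells. Serpinb1a, an inhibitor of neutrophil serine proteases, had 146 CPM in BMT against 657 CPM in WT, 4.50-fold lower (3.86 to 5.26). Orm1, an acute-phase glycoprotein, had 56.0 CPM in BMT against 342 CPM in WT, 6.12-fold lower (4.82 to 7.81). Mmp8, neutrophil collagenase, went the other way with 2058 CPM in BMT against 1214 CPM in WT, a ratio of 1.70 (1.57 to 1.83) that did not reach 2-fold. Of 19 measured secondary granule genes, 2 were higher and 5 lower in BMT by 1.5-fold or more, with a median log2 ratio of −0.17. Over all measured genes 21% were higher by that measure and 26.6% lower, with a median of −0.06. None of the secondary granule genes counted as higher or lower was a gene of the rule. The rule did use Camp, Ngp and Ltf, so their part in the median and in the number measured describes the choice. The lists here follow known biology but were drawn up with earlier results of these data known.

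Some genes of the later stages were higher in BMT and others lower. Retnlg, a resistin-like protein of mature neutrophils, had 32328 CPM in BMT against 13579 CPM in WT, 2.38-fold higher (2.33 to 2.43). Il1r2, the decoy receptor for interleukin-1, had 928 CPM in BMT against 241 CPM in WT, 3.86-fold higher (3.29 to 4.54). Clec4d, a C-type lectin receptor, had 422 CPM in BMT against 106 CPM in WT, 3.98-fold higher (3.13 to 5.11). Cxcr2, the chemokine receptor that draws neutrophils out of the marrow, was 2.12-fold higher (1.56 to 2.91) and Cxcr4, which holds them back, 1.55-fold higher (1.22 to 1.97). Slpi, a secreted inhibitor of elastase, was 2.92-fold higher and Cd14, a lipopolysaccharide co-receptor, 2.58-fold higher. Of 33 measured late genes, 9 were at least 1.5-fold higher, Btg1, Fth1, Hdc and Fpr1 among them, and 7 were lower, including Il1b, Ifitm1 and Wfdc17, with a median log2 ratio of −0.02. Over all measured genes 21% were higher by that measure and 26.6% lower, so the late list as a whole stood near those shares.

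**Figure D2:**
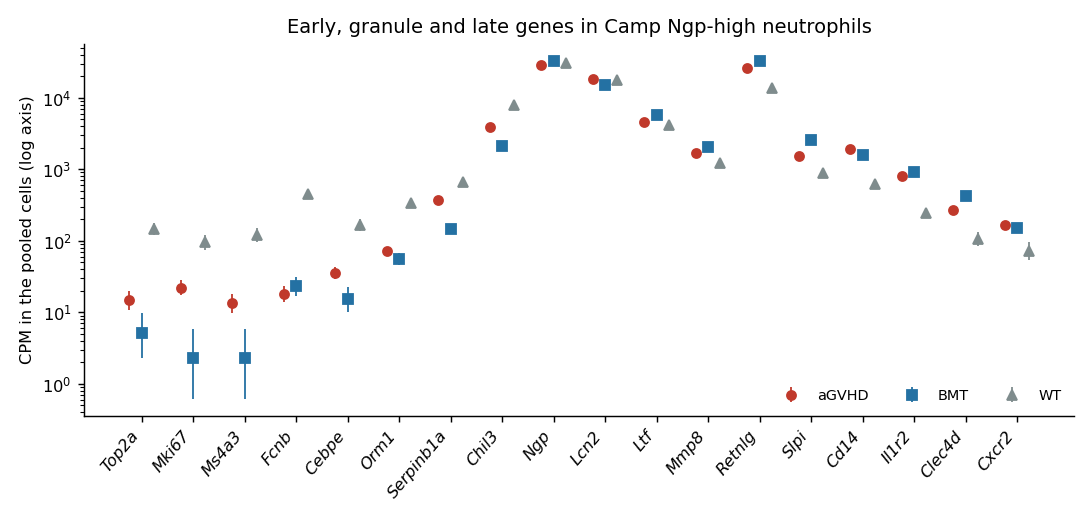
CPM of 18 genes in the pooled Camp Ngp-high neutrophils of aGVHD, BMT and WT on a log axis, ordered from division and early genes (left) through granule genes to late genes (right), with exact 95% Poisson intervals. Division and early genes such as Cebpe (35.7, 15.3 and 166 CPM) are highest in WT, and the late genes shown, such as Il1r2 (795, 928 and 241 CPM), are lowest in WT. The late genes shown do not stand for their list, where 9 of 33 measured genes were at least 1.5-fold higher in BMT than in WT and 7 lower.

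The genes ranked highest in BMT over WT were mostly outside these programmes. Spp1, the secreted matrix protein osteopontin, had 1544 CPM in BMT against 82.1 CPM in WT, 18.8-fold higher (14.5 to 24.8), with a UMI in 75.6% of BMT cells and 32.1% of WT cells. Empty droplets held 697 CPM of Spp1 in BMT and 1238 CPM in WT. In Camp Ngp-low neutrophils Spp1 ran the other way, with 1147 CPM in BMT against 9487 CPM in WT. Ctse, the aspartic protease cathepsin E, had a UMI in 82.6% of BMT cells against 9.43% of WT cells and was 25.6-fold higher (10.8 to 79.3). Isy1, a splicing factor, was 10.5-fold higher, Pmvk, phosphomevalonate kinase, 8.70-fold higher and Man1b1, a mannosidase, 7.77-fold higher. Tmem156, a membrane protein, had 66 UMIs in BMT and 1 in WT, a ratio of 26.4 (4.57 to 1057). The Y-linked genes Ddx3y and Eif2s3y had 188 and 152 UMIs in BMT and 0 in WT, at least 25.04-fold and 20.2-fold higher against a floor of 3 UMIs in the WT library.

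In other lists the counts are read against the 21% of all measured genes that were at least 1.5-fold higher in BMT and the 26.6% that were lower. Of 28 measured genes of oxidative phosphorylation, the mitochondrial respiratory chain, none was at least 1.5-fold higher in BMT and 12 were lower, with a median log2 ratio of −0.52. Ndufa4 was 2.69-fold lower (2.13 to 3.41) and Cox5a 2.20-fold lower (1.81 to 2.68). Empty droplets held 330 CPM and 470 CPM of Ndufa4 in BMT and WT, above the 80.9 CPM and 218 CPM of the cells, and the part of free RNA was not tested. Of 17 inflammatory genes 6 were higher and 9 lower: Il1rn, the interleukin-1 receptor antagonist, was 2.22-fold higher, while the chemokine gene Ccl3 was 45.0-fold lower on 3 UMIs in BMT and 54 in WT, with 55.6% of the WT UMIs from 1 cell. The inflammatory median was −0.83. Of 22 type I interferon response genes 5 were higher, Isg15 (2.94-fold) and Isg20 (3.12-fold) among them, and 2 lower, with a median of −0.02, a share of higher genes near that of all measured genes. Interferon gamma genes held 5 higher and 2 lower of 12, with a median of 0.37, and the 2 with the largest ratios, Iigp1 and Cxcl9, stood at 371 CPM and 1395 CPM in the BMT empty droplets against 89.9 CPM and 59.4 CPM in the BMT cells. Class I genes H2-D1 and H2-K1 had ratios of 1.51 and 1.49, with 5376 CPM and 2919 CPM in the BMT empty droplets against 3498 CPM and 1791 CPM in the BMT cells. WT mice also carry the BALB/c form of this locus, which the marrow donors lack.

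The aGVHD library was next compared with BMT, which received marrow without the spleen cells. Each is 1 library, so spleen cells cannot be told apart from differences of mice, sampling day or sort. The libraries also differed in their sex-linked transcripts, given below. The stefin A genes, small inhibitors of cysteine proteases that are clustered on chromosome 16, were higher in aGVHD, together with Wfdc17, Lrg1, Asprv1 and Tspo. Of 4311 measured genes, 35 passed the size rule as higher in aGVHD (0.812%) and 93 as lower (2.16%). The median log2 ratio of all measured genes was −0.18, and with this median set to 0 the numbers were 54 and 55. Ratios below are as measured, so a log2 ratio of −0.18 is the level of the typical gene. With no empty-droplet limit the numbers were 156 and 416. Both comparisons use the BMT library, so a gene low in that library can rank in both, and their values stand side by side only.

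Stfa2, at chr16:36403992-36408457 on the minus strand, had 2160 UMIs in aGVHD against 3 in BMT, or 664 CPM against 1.70 CPM, a ratio of 391 (134 to 1899). WT cells had 97.6 CPM, so the BMT library was the low one for this gene. Stfa1 had 986 CPM in aGVHD, 111 CPM in BMT and 123 CPM in WT, which put aGVHD 8.90-fold above BMT (7.70 to 10.3). BC100530, an unnamed gene model in the same cluster, had 1459 CPM in aGVHD, 80.3 CPM in BMT and 116 CPM in WT, which put aGVHD 18.2-fold above BMT (15.4 to 21.6). Gm5483, Stfa3 and Stfa2l1 were 4.84-fold, 2.57-fold and 2.24-fold higher in aGVHD. All 6 passed the size rule, but they are close copies of each other, and how reads were split between them is uncertain, so their sum was taken as well, a grouping chosen after the values were seen. The sum made up 0.570% of UMIs in aGVHD, 0.101% in BMT and 0.124% in WT. It was 5.65-fold above BMT in aGVHD (5.38 to 5.93), and its BMT over WT ratio was 0.816 (0.752 to 0.886). Counted by cell, the libraries ranked differently. A UMI of the 6 genes was found in 73.0% of cells in aGVHD, 41.9% in BMT and 71.7% in WT. After each cell was thinned to the same depth the shares were 56.0%, 27.3% and 49.1%. In detection BMT was thus the low library, and aGVHD stood nearer to WT. The median cell held 0.105% of its UMIs in the 6 genes in aGVHD, 0% in BMT and 0.0449% in WT.

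Stefin transcripts were concentrated in a subset of the cells. In aGVHD, 75 of 293 cells held at least 0.5% of their UMIs in the 6 genes (25.6%, 20.7% to 31.0%), against 13 of 172 in BMT (7.56%, 4.09% to 12.6%) and 5 of 53 in WT (9.43%, 3.13% to 20.7%). The 75 aGVHD cells held 86.6% of that library's stefin UMIs and 1 cell held 12.0%. Their median Camp, Ngp and Ltf share, which the rule used, was 2.71% against 4.39% in the other aGVHD cells, at median depths of 10560 and 10215.5 UMIs. Granule genes outside the rule were mixed. Ratios to the other cells were 0.942 for Lcn2 (0.925 to 0.961), 1.05 for Chil3, 1.05 for Cd177 and 1.30 for Mmp8. Fcnb, on few UMIs, had a ratio of 0.109 (0.0129 to 0.414). Within aGVHD these cells had 242 CPM of Cxcr2 against 145 CPM in the others, and 1103 CPM of Wfdc17 against 526 CPM. Fcnb had 2 UMIs in them against 57 in the others. Stefin levels were also high in Camp Ngp-low neutrophils, at 0.758% of UMIs in aGVHD, 0.235% in BMT and 0.408% in WT.

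**Figure D3:**
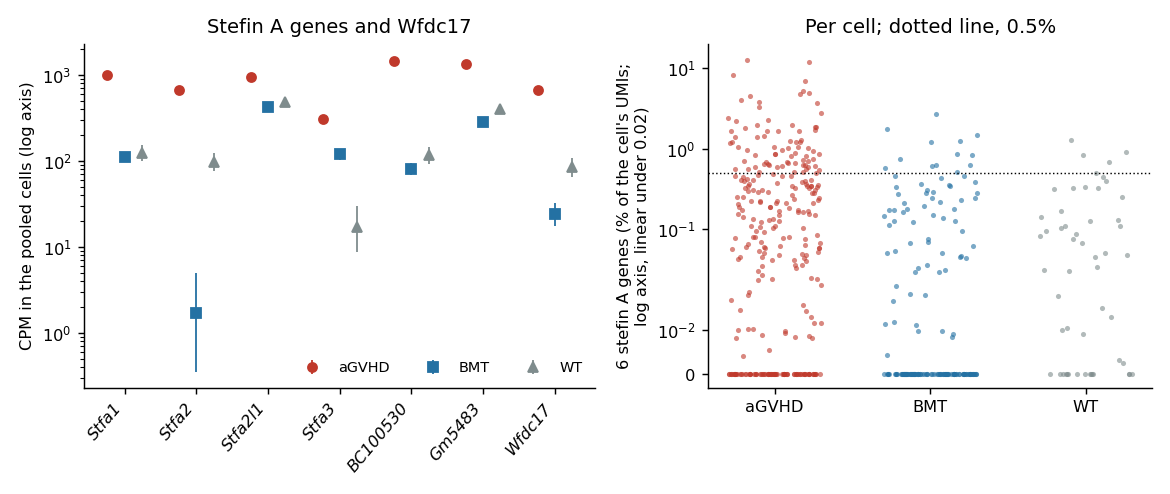
Left, CPM of the 6 stefin A genes and Wfdc17 in pooled Camp Ngp-high neutrophils of aGVHD, BMT and WT on a log axis, with exact 95% Poisson intervals. Right, the 6 stefin A genes as a percentage of each cell's UMIs on an axis that is logarithmic above 0.02% and linear below, 1 point per cell; 75, 13 and 5 cells reach the dotted 0.5% line, and in every library many cells lie at 0.

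Other genes higher in aGVHD included secreted proteins and enzymes. Wfdc17, a small protein of the whey acidic protein family at chr11:83703991-83706268, had 666 CPM in aGVHD, 24.3 CPM in BMT and 84.9 CPM in WT, which put aGVHD 27.4-fold above BMT (20.3 to 38.0). It had a UMI in 51.5% of aGVHD cells, 8.14% of BMT cells and 24.5% of WT cells. Lrg1, a leucine-rich glycoprotein stored in neutrophil granules, had 910 CPM in aGVHD, 227 CPM in BMT and 490 CPM in WT, which put aGVHD 4.00-fold above BMT (3.61 to 4.45). Asprv1, an aspartic protease, had 683 CPM in aGVHD, 114 CPM in BMT and 541 CPM in WT, which put aGVHD 6.01-fold above BMT. For Asprv1 and for Tspo (1218, 363 and 939.5 CPM), a protein of the outer mitochondrial membrane, aGVHD and WT thus stood closer to each other than BMT stood to either. Lipg, endothelial lipase, was 32.1-fold higher on 118 UMIs in aGVHD and 2 in BMT (8.68 to 268), and Ggt1, which breaks down glutathione, was 6.57-fold higher. Tnf, tumour necrosis factor, had 48.3 CPM in aGVHD against 13.01 CPM in BMT, 3.71-fold higher (2.39 to 6.03), and a UMI in 25.3% of aGVHD cells against 9.88% of BMT cells.

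Some early and granule genes were higher in aGVHD than in BMT. Cebpe had 35.7 CPM in aGVHD against 15.3 CPM in BMT, 2.34-fold higher (1.53 to 3.69). Serpinb1a was 2.56-fold higher (2.24 to 2.94), and Chil3 had a ratio of 1.88 (1.81 to 1.95). All 3 remained below their WT levels in aGVHD. Of 19 secondary granule genes, 4 were at least 1.5-fold higher in aGVHD, Chil3, Hp, Ceacam10 and Serpinb1a, and none was lower, with a median log2 ratio of 0.03. Over all measured genes 9.53% were higher by that measure and 25.3% lower. None of the 4 secondary granule genes counted as higher was a gene of the rule. The rule did use Camp, Ngp and Ltf, so their part in the median describes the choice. Of 34 late genes 12 were higher, with the 6 stefin genes, Wfdc17, Ifitm1, Ifitm2 and Selplg among them, and 6 were lower, including Btg1, Clec4d and Hdc, with a median of 0.17.

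Interferon and inflammatory lists differed among themselves in aGVHD, where 9.53% of all measured genes were at least 1.5-fold higher and 25.3% lower. The type I interferon list leaned towards higher genes, beside a median log2 ratio of −0.18 over all measured genes. Of 33 type I interferon response genes 8 were at least 1.5-fold higher and 1 lower, with a median log2 ratio of 0.24. Of 18 interferon gamma genes 3 were higher and 3 lower, with a median of −0.04, and of 18 class I genes 1 was higher and 5 lower, with a median of 0.01. Oas1g was 2.97-fold higher (1.63 to 5.85), Zbp1, a sensor of viral nucleic acid, 1.67-fold and Ifitm3, a membrane protein that blocks virus entry, 1.64-fold, while Isg15 had a ratio of 0.700. Of 19 inflammatory genes 5 were higher, Tnf, Ccl3, Ccl4, Nfkbiz and Tlr2, and 1 was lower, with a median of −0.12. Of these 5, Ccl3, Ccl4 and Nfkbiz stood below their empty droplets in aGVHD, at 27.0, 25.8 and 121 CPM against 149, 171 and 151 CPM. Of 18 immediate early genes, which respond to handling and stress within minutes, none was higher and 8 were lower, with a median of −0.43. Fos had 45.8 CPM in aGVHD against 277 CPM in BMT, 6.05-fold lower (5.03 to 7.32), and empty droplets held 852 CPM and 2247 CPM of it. The part of free RNA in the Fos difference was not tested.

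The genes ranked lowest in aGVHD over BMT had few UMIs and mixed roles. Mvk, mevalonate kinase, had 31 UMIs in aGVHD against 93 in BMT, 5.52-fold lower (3.64 to 8.58), and 0 in WT. Stat4, a transducer of interleukin-12 signals, was 3.601-fold lower (2.69 to 4.86), Nt5e, the enzyme CD73 that makes adenosine, 3.07-fold lower and Cwc25, a splicing factor, 3.04-fold lower. Mpp7, Kif13b, Atad2b and Oscp1 were 5.41-fold, 5.03-fold, 4.94-fold and 4.18-fold lower. Spp1 also fell, to 730 CPM in aGVHD against 1544 CPM in BMT, 2.12-fold lower (2.002 to 2.24).

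Some genes varied with the granule share among the cells and others did not. The cells were divided at the pooled quartiles of the Camp, Ngp and Ltf share, 1.97%, 4.13% and 7.05%, into 4 ranges, which are stretches of a gradient and not cell types. The ranges held 81, 74, 78 and 60 cells in aGVHD, 41, 42, 35 and 54 in BMT, and 8, 13, 16 and 16 in WT, from low to high. In aGVHD and BMT, Lcn2 stood higher in each range than in the one before, with 13363, 15417, 20581 and 23971 CPM in aGVHD and 9400, 11160, 14775 and 19723 CPM in BMT, and in WT it had 18906, 13324, 16110 and 21574 CPM. Cybb, the catalytic subunit of the NADPH oxidase, had 165, 362, 645 and 1091 CPM in aGVHD, 308, 530, 709 and 1208 CPM in BMT, and 404, 814, 869 and 1733 CPM in WT. Retnlg ran the other way, with 42512, 27220, 21607 and 12314 CPM in aGVHD, 45043, 44310, 35616 and 17955 CPM in BMT, and 37510, 17859, 15826 and 4219 CPM in WT. Hp showed no such order, with 1852, 2097, 1934 and 1905 CPM in aGVHD, 1427, 1351, 1044 and 1274 CPM in BMT, and 1879, 1316, 1767 and 1601 CPM in WT. Cd177 differed little in aGVHD, with 865, 929, 981 and 987 CPM. In BMT it was higher in the ranges of higher share, with 533, 611, 898 and 867 CPM. In WT it had 1091, 777, 865 and 834 CPM. These gradients are across cells of the same libraries and were given no test.

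The gaps between libraries held within ranges for some genes. Chil3 had 1579, 2289, 4632 and 7382 CPM in aGVHD, 121, 549, 1332 and 4248 CPM in BMT, and 3010, 5361, 6379 and 11776 CPM in WT, so at every range BMT was lowest and WT highest. Clec4d was highest in BMT in every range, with 912, 509, 406 and 145 CPM there, and lowest in WT. Wfdc17 had 1372, 889, 389 and 28.4 CPM in aGVHD, and its gap to BMT, at 101, 7.84, 2.86 and 7.16 CPM, was present throughout. Weighting the 4 ranges equally left 141 genes higher and 85 lower in BMT over WT, and 38 higher and 91 lower in aGVHD over BMT.

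**Figure D4:**
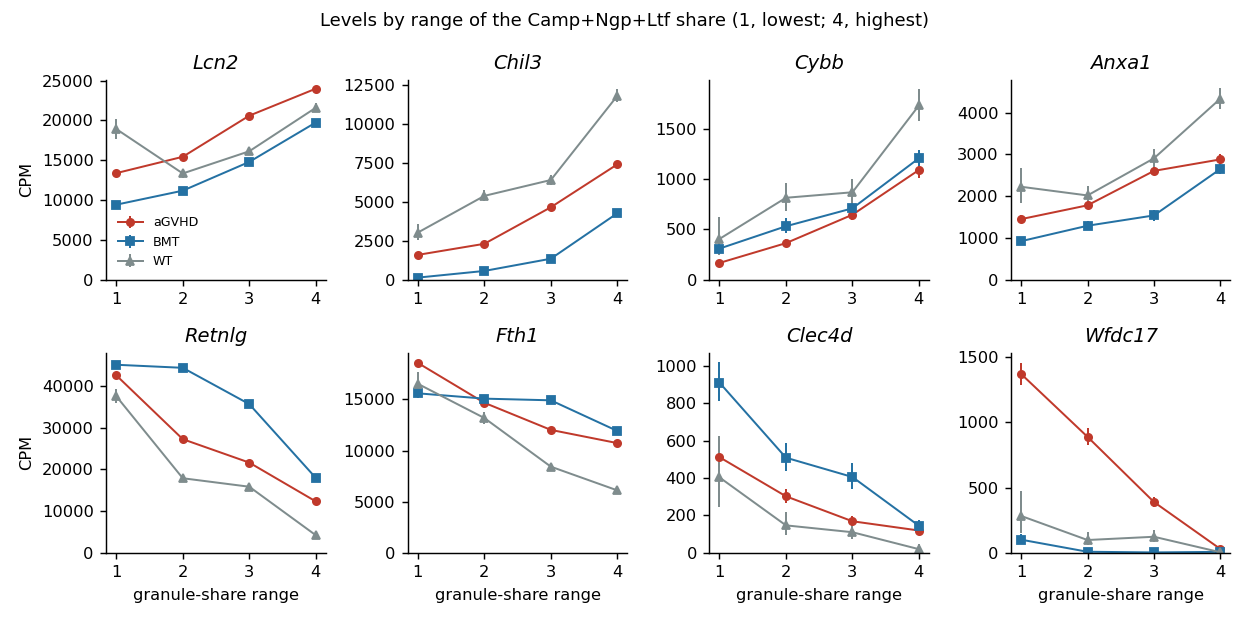
CPM of 8 genes in the 4 ranges of the Camp, Ngp and Ltf share (1, lowest; 4, highest) in aGVHD, BMT and WT, with exact 95% Poisson intervals. Cybb and Chil3 are higher at a higher granule share, Retnlg, Fth1 and Clec4d lower, Chil3 is lowest in BMT in all 4 ranges, and Wfdc17 is highest in aGVHD.

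Dividing cells were rare after transplantation. After each cell was thinned to 1000 UMIs, at least 2 UMIs of a strict list of 25 division genes were found in 6 of 293 cells in aGVHD (2.05%, 0.755% to 4.40%), 1 of 172 in BMT (0.581%, 0.0147% to 3.20%) and 5 of 53 in WT (9.43%, 3.13% to 20.7%). Without thinning the shares were 5.12%, 4.07% and 20.8%. Camp Ngp-low neutrophils, taken as later cells that seldom divide, gave 2.23% in aGVHD, 0.338% in BMT and 0% in WT after thinning, so the aGVHD and BMT shares did not stand above that background. Summed over the strict list, BMT was 41.6-fold lower than WT (31.0 to 57.1) and aGVHD 6.28-fold higher than BMT (4.66 to 8.65). Of these UMIs, 1 cell held 41.4% in aGVHD, 40.4% in BMT and 27.5% in WT. Empty droplets held 0.131% and 0.0489% of their UMIs in this list in aGVHD and BMT, above the 0.0167% and 0.00266% of the cells. In WT the empty droplets held 0.0792%, against 0.111% in the cells. All 5 strict genes measured were at least 1.5-fold lower in BMT over WT, against 26.6% of all measured genes, but 1 of the 5 passed the size rule. All 4 measured were higher in aGVHD over BMT, against 9.53%, but 0 of the 4 passed the size rule. The aGVHD over BMT log2 ratio of Top2a, 1.54, was 0.12 without likely doublets, 0.07 without cells holding haemoglobin or stromal markers and −0.26 after subtraction of empty-droplet RNA, and that of Mki67, 3.29, was 1.73 without those haemoglobin and stromal cells. In aGVHD the empty droplets held 115 CPM of Mki67 and 91.7 CPM of Top2a against 22.1 CPM and 14.7 CPM in the cells.

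Sex-linked transcripts differed between libraries. UMIs of Y-linked genes were found in 154 of 293 cells in aGVHD (52.6%, 46.7% to 58.4%), 138 of 172 in BMT (80.2%, 73.5% to 85.9%) and 0 of 53 in WT, for which the exact interval reaches 6.72% and a floor of 3 cells 5.66% of cells with a UMI. Their level was 107 CPM in aGVHD (96.3 to 119), 205 CPM in BMT (185 to 228) and 0 in WT. In cells with stromal markers of the same libraries, with female recipients in both transplanted groups, the Y-linked level was 2.78 CPM in aGVHD, 3.54 CPM in BMT and 0 in WT, and empty droplets held 55.5, 65.7 and 1.28 CPM. In aGVHD and BMT the Y-linked level of the neutrophils was thus above both, and the sum was 1.91-fold lower in aGVHD than in BMT (1.65 to 2.22). After thinning to 1000 UMIs the shares with a Y-linked UMI were 13.3% in aGVHD, 20.9% in BMT and 0% in WT.

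Xist, the RNA that silences an X chromosome in female cells, had a UMI in 45 cells in aGVHD (15.4%), 9 in BMT (5.23%) and 32 in WT (60.4%). Its level was 38.1 CPM in aGVHD, 60.5 CPM in BMT and 270 CPM in WT, below the 292, 383 and 694 CPM of the empty droplets, so an Xist UMI can come from free RNA and does not by itself mark a female cell. The groups with Xist and no Y-linked UMI held 37 cells in aGVHD, 4 in BMT and 32 in WT, and the groups with Y-linked and no Xist UMI held 146, 133 and 0. Both kinds were found in 8 cells in aGVHD and 5 in BMT. Without likely doublets and cells with haemoglobin or stromal marker UMIs, the cells with Xist and no Y-linked UMI were 33 of 276 in aGVHD (12.0%) and 1 of 165 in BMT (0.606%). Camp Ngp-low neutrophils gave 13.4% and 1.86% in the same way. Cells with neither kind made up 102 in aGVHD, 30 in BMT and 21 in WT, and the origin of cells with or without these UMIs was not tested.

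**Figure D5:**
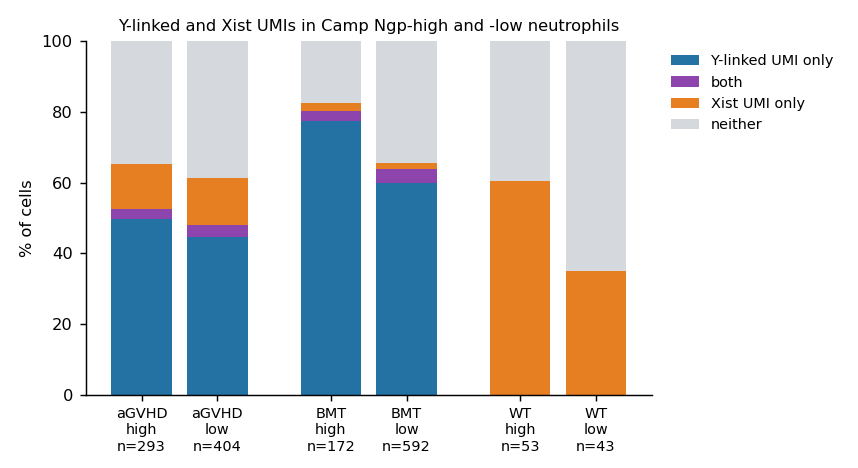
Percentage of Camp Ngp-high and Camp Ngp-low neutrophils with only Y-linked UMIs, both kinds, only Xist UMIs or neither, in aGVHD, BMT and WT. Cells with only Y-linked UMIs are 146 of 293, 133 of 172 and 0 of 53 among Camp Ngp-high neutrophils, and cells with only Xist UMIs are 37, 4 and 32.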

How the data were processed

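Unique molecular identifiers (UMIs) were counted per gene and barcode by the authors with Cell Ranger 3.1.0, per the file headers, and the raw counts of all barcodes were deposited. The build mm10 and Seurat are named in the submitters' processing notes, and gene coordinates are those of GRCm38. Rows with the same gene symbol were summed. Called cells held at least 1000 UMIs, 500 genes and under 10% mitochondrial UMIs, which gave 5568 cells in aGVHD, 3621 in BMT and 7129 in WT at medians of 6977.5, 6932 and 7355 UMIs. Barcodes with 1 to 100 UMIs stood for empty droplets.

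UMIs were summed over cells of a library and given as UMIs per 1e+06 UMIs of the same cells (CPM) with exact Poisson 95% intervals, and ratios of 2 libraries with exact conditional intervals. A count of 0 was set to a floor of 3 UMIs per library in a ratio. With 1 library per group there was no replicate and no test. Reads of PCR copies were collapsed by UMI, and intervals cover counting error only. Shares that depend on depth were also given after thinning each cell to 1000 UMIs.

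Named genes were the 8 highest and 8 lowest of each comparison, ordered among those past the size rule by the end of the interval closer to 1, without haemoglobin, immunoglobulin, ribosomal and mitochondrial genes or unnamed models, together with the 9 genes of the rule, the most abundant members of each gene list and list members past the size rule. The cells, lists and rules were chosen with earlier results of these data known. The stefin A sum was added after its values were seen. Likely doublets were taken by the highest Scrublet score, 0.8% for each 1000 called cells; they were kept and removed as an alternative. The ratio code was tested on simulated data. Python 3.11.15, numpy 2.4.6, scipy 1.17.1, pandas 2.3.3, scanpy 1.11.5 and matplotlib 3.10.9 were used.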

Additional observations from a re-analysis of the deposited data

Results flagged for a closer look

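For 2 genes the BMT over WT ratio ran one way in Camp Ngp-high neutrophils and the opposite way in Camp Ngp-low neutrophils, and the difference between the groups of cells was not tested. Spp1 had a ratio of 18.81 in Camp Ngp-high cells and 0.1209 (0.114 to 0.128) in Camp Ngp-low cells, where BMT had 1147 CPM against 9487 CPM in WT. Bcl2a1b, a relative of the survival factor BCL2, had a ratio of 6.094 in Camp Ngp-high cells, on 61 UMIs in BMT and 4 in WT, and 0.4483 (0.327 to 0.627) in Camp Ngp-low cells.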

How the results depend on the processing

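Across 15 alternatives, no named gene changed direction in a comparison in which it passed the size rule, while 1108 of 8800 ratios of named genes moved beyond their main interval. Without the 9 rule genes in the scaling, 261 genes were higher in BMT over WT and 143 lower in aGVHD over BMT. With the median log2 ratio set to 0, aGVHD over BMT had 54 higher and 55 lower, and oxidative phosphorylation a median of 0.268. With no empty-droplet limit, BMT over WT had 334 higher and 466 lower, and aGVHD over BMT 156 and 416. From 20 UMIs on, 151 genes were lower in BMT over WT. After subtraction of empty-droplet RNA, aGVHD over BMT medians were −0.149 for oxidative phosphorylation, a reversal, and −1.679 for immediate early genes. In BMT over WT, weighting cells equally gave medians of −4.353 for the strict cell cycle list, −0.237 for type I interferon and −0.370 for oxidative phosphorylation, and weighting granule ranges equally gave −4.754 and −0.246 for the first 2 of these. Oxidative phosphorylation was −0.383 without cycling cells. Immediate early genes were −0.955 without likely doublets and −0.525 at a Camp, Ngp and Ltf limit of 2%. Of the 2 alternatives chosen after seeing the data, leaving out the cell with most UMIs of each gene gave 49 genes lower in BMT over WT, and leaving out cells with progenitor markers gave −0.307 for oxidative phosphorylation. Elane in aGVHD over BMT, with its UMIs in 1 cell of each library, gave no value without that cell. The causes were not tested. No paired analysis was possible because each group is 1 library, and for the same reason no library could be left out.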
